A study of Mus musculus with 3 samples.

Results

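The insulin-like growth factor (IGF) system was examined through 10 genes: the ligands Igf1 and Igf2, the receptors Igf1r and Igf2r, and the binding proteins Igfbp2 to Igfbp7. A probe set belonged to a gene when the platform annotation gave it that gene's symbol alone. This gave 28 probe sets, of 34958 with a single symbol and 45101 on each array, and the 10 genes stand among 18194. Igfbp4 had 6 probe sets, Igf1r 5, Igf1 4 and Igfbp7 3. Igf2, Igf2r, Igfbp3 and Igfbp5 had 2 each, and Igfbp2 and Igfbp6 had 1 each. The cells were C2C12, a mouse myoblast line that can form myotubes in culture. Each of 3 lines carried a short hairpin RNA (shRNA) against FoxO1, FoxO3 or FoxO4, was picked as the colony with the best depletion of its target, and was grown in DMEM under puromycin. Total RNA of each line was hybridised to 1 Affymetrix mouse array, so there were no replicates and no p-value is given. A control RNAi sample enters only through the authors' deposited log2 ratio of the FoxO1 line. Dividing that line's signal by the ratio, taken off the log2 scale, gave an implied control signal, which is approximate and not a measured array.

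The targeted genes went partly against the labels, so each array is named by its label and not as a known knockdown. The brightest Foxo1 probe set read 2778 on the FoxO1-labelled array, 563 on the FoxO3-labelled array and 1827 on the FoxO4-labelled array, with 1209 in the implied control. Foxo1 was thus highest where it should be lowest by the label. For Foxo3 the signals were 1357, 1047 and 1016 beside an implied 1029, so the array with that label did not stand apart on this probe set. Of 2 other Foxo3 probe sets, the first read 2380, 1573 and 386 beside an implied 1570, lowest on the FoxO4-labelled array. The second read 174, 82.0 and 96.4 beside an implied 747, lowest on the FoxO3-labelled array, though only by a log2 difference of -0.23 from the FoxO4-labelled array. For Foxo4 they were 1799, 345 and 80.4 beside an implied 1678, lowest on the array with that label, but a dimmer Foxo4 probe set was highest there, at 763 against 188 and 163. Hairpin and colony cannot be told apart. All 7 myoblast markers had a probe set, and none lay at or below the floor, the 20th percentile of signal, on all arrays. The same held for every other marker list used below, leukocyte and endothelial markers included. This criterion therefore does not single out myoblasts. Myod1 read 2959, 2140 and 713, and Myf5 1056, 1758 and 1398, on the FoxO1-, FoxO3- and FoxO4-labelled arrays.

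How far 2 probe sets of the same gene differed was the only repeat measurement. For the FoxO1-labelled array minus the FoxO3-labelled array, this difference had a standard deviation (SD) of 0.62 on the log2 scale over 383 genes with 2 probe sets in the upper 10% of signal, and their values correlated with r = 0.83. Between the 25th and 50th percentiles of signal the SD was 2.75 over 1092 genes and r was 0.04. Of the 28 IGF probe sets, 5 lay in the upper 10% and 3 more in the upper 25%. These were Igf2r (2 probe sets), Igfbp2, Igfbp5 (2), Igfbp6, the brightest of Igfbp7 and the brightest of Igf1r. The other 20 probe sets, those of Igf1 and Igf2 included, lay where a single probe set repeats poorly, so for them it is said how many probe sets of a gene share a pattern.

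Igf1 and Igf2 are secreted peptides that signal through the tyrosine kinase Igf1r to Akt, and Akt in turn phosphorylates FoxO factors and keeps them out of the nucleus. Igf2r binds Igf2 and carries it to lysosomes. The binding proteins hold the ligands in the medium or matrix and can block or deliver them, and Igfbp7 binds IGFs only weakly. In cultured myoblasts IGFs act on both proliferation and differentiation, and Igf2 and Igfbp5 are known to be made by differentiating C2C12 cells.

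Because the hairpins target forkhead factors, the 250 bases before the annotated starts of the 10 genes were searched in the RefSeq promoter table of build GRCm38.p6, on both strands. All 10 genes matched, with 14 start sites. The FoxO motifs GTAAACA and CAAAACA were found in 0 of the 14 windows, against 3.17% and 5.56% of all 32851 windows of this length. The short forkhead core AAACA was found in 4 of the 14 (46.4% of all windows) and the E-box CANNTG, the letters bound by MyoD and myogenin, in 9 of the 14 (66.2%). These latter motifs were added after the data were seen. The windows of the genes with the most marked values are printed 5′ to 3′, with AAACA or its complement TGTTT, and CANNTG, in capitals. For Igf2 the only one of its 4 windows with a forkhead core is shown.
Igf1, chr10:87860861-87861110, plus strand: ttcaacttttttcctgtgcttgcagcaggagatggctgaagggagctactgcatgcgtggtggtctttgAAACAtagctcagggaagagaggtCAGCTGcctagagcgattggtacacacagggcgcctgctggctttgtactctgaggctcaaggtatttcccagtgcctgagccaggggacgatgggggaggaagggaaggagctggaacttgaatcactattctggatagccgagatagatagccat
Igf2, chr7:142661272-142661521, minus strand: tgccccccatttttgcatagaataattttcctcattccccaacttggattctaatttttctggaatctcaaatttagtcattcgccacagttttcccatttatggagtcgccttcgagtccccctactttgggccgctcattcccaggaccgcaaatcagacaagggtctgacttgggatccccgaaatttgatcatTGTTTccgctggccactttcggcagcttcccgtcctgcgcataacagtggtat
Igfbp5, chr1:72874866-72875115, minus strand: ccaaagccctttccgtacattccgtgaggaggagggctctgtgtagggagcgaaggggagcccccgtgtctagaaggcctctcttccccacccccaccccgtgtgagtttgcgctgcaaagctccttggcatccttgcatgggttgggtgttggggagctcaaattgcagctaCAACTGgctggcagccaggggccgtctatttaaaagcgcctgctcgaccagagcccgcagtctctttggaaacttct
Igfbp7, chr5:77408046-77408295, minus strand: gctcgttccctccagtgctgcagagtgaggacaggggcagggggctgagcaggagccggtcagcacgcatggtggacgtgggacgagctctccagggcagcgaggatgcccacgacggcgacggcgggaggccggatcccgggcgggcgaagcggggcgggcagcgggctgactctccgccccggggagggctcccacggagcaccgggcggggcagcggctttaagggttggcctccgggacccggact
Igf1 had 1 forkhead core and 1 E-box, the latter being CAGCTG. The printed Igf2 window had 1 core and no E-box, while another Igf2 window, which is not printed, had 2 E-boxes and no core. Igfbp5 had 1 E-box and no core, and Igfbp7 had neither. In none of these windows did the motifs overlap each other. The letters are a description and say nothing about binding.

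Igf1 was highest on the FoxO1-labelled array and lowest on the FoxO3-labelled array in all 4 of its probe sets. Probe set 1452014_a_at read 1868 on the FoxO1-labelled array, 364 on the FoxO3-labelled array and 677 on the FoxO4-labelled array. On 1419519_at the Igf1 signals were 659, 193 and 570. The third Igf1 probe set, 1434413_at, read 722, 31.0 and 513, and the fourth, 1437401_at, read 459, 63.2 and 127. The order was therefore FoxO1, FoxO4, FoxO3 in every Igf1 probe set. Among all 1093 genes with 4 probe sets, 18 (1.65%) kept 1 order on the 3 arrays in every probe set. As log2 differences, the FoxO1-labelled array exceeded the FoxO3-labelled array by 1.77 to 3.30, with a median of 2.51 and an SD of 0.64 over the 4 Igf1 probe sets. The 2 largest of these are lower bounds, since Igf1 lay below the floor of 73.1 there. The FoxO1-labelled array exceeded the FoxO4-labelled array by 0.21 to 1.85, so that gap was small for part of the Igf1 probe sets.

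Against the control, the authors' deposited log2 ratios of Igf1 on the FoxO1-labelled array were 3.7, 3.4, 2.5 and 1.5, and all 4 carried a no change call in the authors' deposited table. The implied control signal of Igf1 was 62.4 to 162, beside a floor of 88.8. With that control the brightest Igf1 probe set lay at 1.34 on the FoxO3-labelled array and 2.24 on the FoxO4-labelled array. The FoxO3-labelled array was above it on 2 Igf1 probe sets and below it on the other 2.

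Igf2 was far below the control on the brighter of its 2 probe sets, and the other did not share this. Igf2 probe set 1448152_at read 1401 on the FoxO1-labelled array, 1156 on the FoxO3-labelled array and 838 on the FoxO4-labelled array. The Igf2 signals of the lines lay at most 0.74 apart on the log2 scale, less than the SD of 1.81 between probe sets at this signal level. The authors' deposited ratio of Igf2 was -2.7 with a decrease call, a 6.50-fold difference, and the implied control signal was 9102. Against this value Igf2 was 7.88-fold lower on the FoxO3-labelled array and 10.9-fold lower on the FoxO4-labelled array. The other Igf2 probe set, 1415931_at, was dim, with signals of 28.6 and 67.4, below the floor, on the FoxO1- and FoxO3-labelled arrays and 208 on the FoxO4-labelled array. It read 26.7 in the implied control. At the signal level of the brighter one, 2.14%, 1.33% and 1.06% of probe sets lay as far below the control on the 3 arrays, and the SD between 2 probe sets of a gene was 1.90, 1.77 and 1.84. The low Igf2 value thus rests on 1 probe set.

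**Figure D1:**
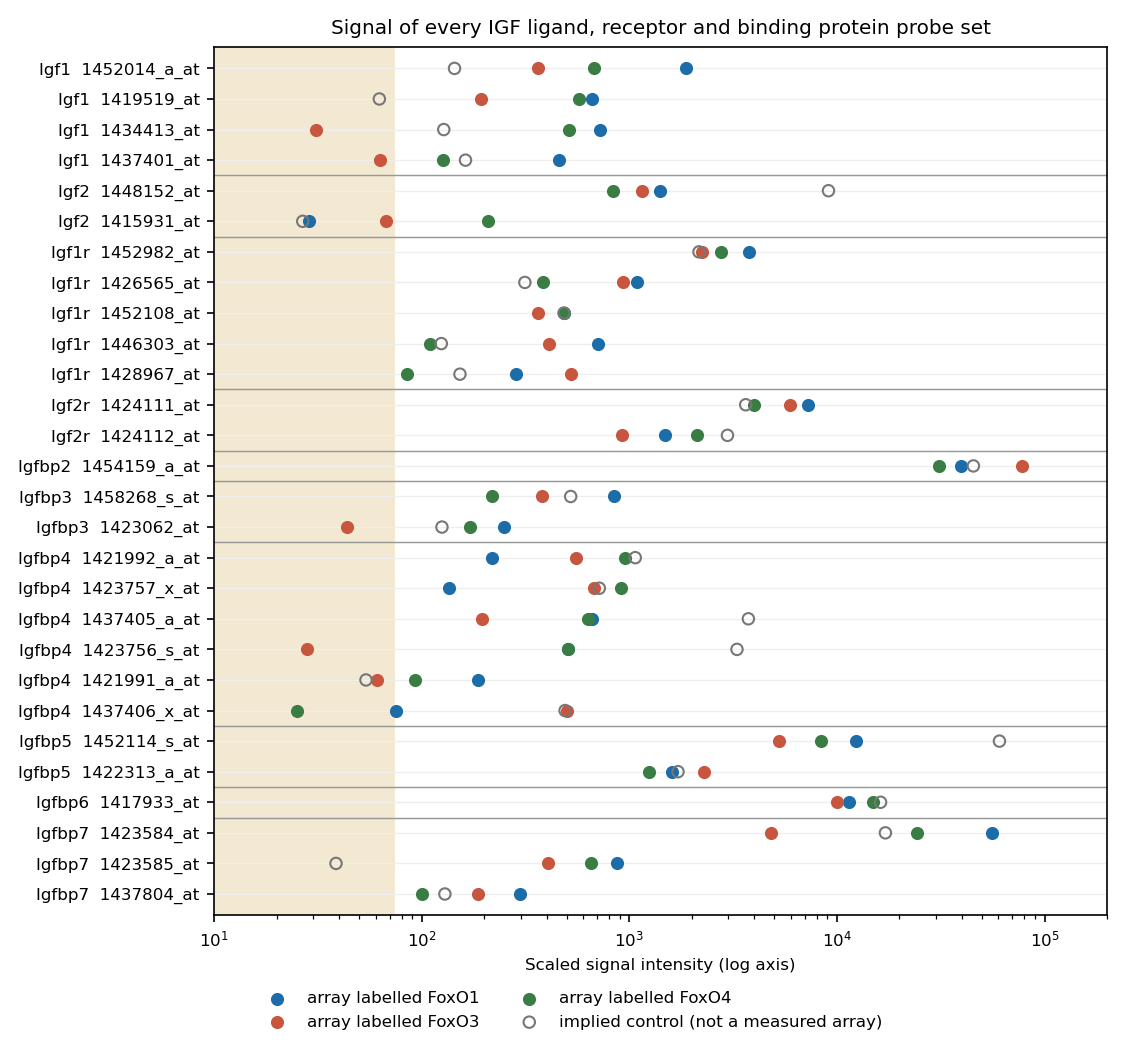
Scaled signal (log axis) of the 28 probe sets on the FoxO1-, FoxO3- and FoxO4-labelled arrays (filled points, 1 array each) and in the implied control (open circles), with the shaded zone below the lowest array floor of 73.1. In all 4 Igf1 probe sets the FoxO1 point is highest and the FoxO3 point lowest. The open circles of Igf2 1448152_at, Igfbp5 1452114_s_at and Igfbp4 1437405_a_at and 1423756_s_at lie far to the right of all 3 arrays.

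Igf1r was at least as high on the FoxO1-labelled array as on the FoxO4-labelled array in all 5 of its probe sets. Its brightest, 1452982_at, read 3768 on the FoxO1-labelled array, 2234 on the FoxO3-labelled array and 2759 on the FoxO4-labelled array. For Igf1r these are log2 differences of 0.75 and 0.45 from the FoxO1-labelled array, below the SD of 0.92 and 1.04 between probe sets at that signal. The other 4 Igf1r probe sets gave 0.00 to 2.68 for FoxO1 minus FoxO4, of which 3 passed 2-fold. Between the FoxO3- and FoxO4-labelled arrays the Igf1r probe sets disagreed, with 3 at least 2-fold higher on the first and 2 slightly lower, the brightest of them at -0.30. The deposited Igf1r ratios to the control ran from 0 to 2.5, all with no change calls in the authors' deposited table.

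The probe sets of Igf2r, the receptor that clears Igf2, gave opposite answers. Igf2r 1424111_at read 7268 on the FoxO1-labelled array, 5913 on the FoxO3-labelled array and 3981 on the FoxO4-labelled array, with 3634 in the implied control. In the authors' deposited table its ratio was 1.0 with an increase call. Igf2r 1424112_at read 1484, 918 and 2109 on the same arrays and 2968 in the implied control, and its deposited ratio was -1.0 with a no change call. Both Igf2r probe sets were higher on the FoxO1-labelled array than on the FoxO3-labelled array, by 0.30 and 0.69, which was within the SD between probe sets at those signals for the first (0.62) and for the second (0.92). No direction against the control is therefore given for Igf2r.

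Igfbp7, a secreted matrix protein, had the widest gap between lines of the bright IGF probe sets. Probe set 1423584_at of Igfbp7 read 55619 on the FoxO1-labelled array, 4823 on the FoxO3-labelled array and 24278 on the FoxO4-labelled array. The FoxO1-labelled array stood 11.5-fold above the FoxO3-labelled array, a log2 difference of 3.53, and 2.29-fold above the FoxO4-labelled array. Igfbp7 on the FoxO4-labelled array was 5.03-fold above the FoxO3-labelled array. These gaps of 3.53, 1.20 and 2.33 each exceeded the SD between probe sets of a gene in the upper 10% of signal, which was 0.62, 0.73 and 0.82. Of the 3496 probe sets in that range, 29 (0.83%) were as far up as Igfbp7 for FoxO1 minus FoxO3. The dimmer Igfbp7 probe sets read 873, 404 and 653 (1423585_at) and 297, 186 and 101 (1437804_at), so the FoxO1-labelled array was highest in all 3 while the other 2 arrays changed places. The implied control lay between the lines at 17119 for the brightest Igfbp7 probe set, with a deposited ratio of 1.7 and an increase call for the FoxO1-labelled array. On the FoxO3-labelled array this Igfbp7 probe set was at -1.83 against it, while the dimmer ones were at 2.19 and 0.53. The implied control of 1423585_at was 38.6, below the floor of 88.8, so its 2.19 is measured from that floor. Its deposited ratio was 4.5 with a no change call.

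Igfbp5, a matrix-bound IGF binding protein, was far below the control on its brighter probe set on all 3 arrays. Igfbp5 1452114_s_at read 12318 on the FoxO1-labelled array, 5245 on the FoxO3-labelled array and 8369 on the FoxO4-labelled array, with 60660 in the implied control. In the authors' deposited table its ratio was -2.3 with a decrease call. These Igfbp5 signals were 4.92-fold, 11.6-fold and 7.25-fold below the control, and 14, 9 and 7 of the 3496 probe sets in the upper 10% of signal lay as low in the respective comparison. Between lines, Igfbp5 was 2.35-fold higher on the FoxO1-labelled array than on the FoxO3-labelled array. The suffix _s_at marks probes that can match more than 1 transcript. The second Igfbp5 probe set, 1422313_a_at, did not show the difference: it read 1600, 2299 and 1240 on the 3 arrays and 1715 in the implied control. Its Igfbp5 log2 differences from the control were -0.1, 0.42 and -0.47. The 2 Igfbp5 probe sets thus disagreed by more than the SD between probe sets, and the gene's median value of -1.20, -1.55 and -1.66 rests on the brighter one.

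Igfbp2, the neighbouring gene of Igfbp5 on chromosome 1, did not share that low signal. Its single probe set read 39550 on the FoxO1-labelled array, 77556 on the FoxO3-labelled array and 30967 on the FoxO4-labelled array. The implied control of Igfbp2 was 45431, inside the range of the lines. Igfbp2 was 2.50-fold higher on the FoxO3-labelled array than on the FoxO4-labelled array, a log2 difference of 1.32 beside an SD of 0.82 between probe sets.

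Igfbp6, a binding protein with a preference for Igf2, was level across the lines. It read 11472 on the FoxO1-labelled array, 9998 on the FoxO3-labelled array and 14856 on the FoxO4-labelled array, and the arrays lay at most 0.57 apart on the log2 scale. In the authors' deposited table Igfbp6 had a ratio of -0.5 and a decrease call, with an implied control of 16224. That call therefore goes with a difference of under 2-fold.

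Igfbp3, the main carrier of IGFs in serum, was highest on the FoxO1-labelled array in both probe sets. Igfbp3 1458268_s_at read 847 on the FoxO1-labelled array, 380 on the FoxO3-labelled array and 217 on the FoxO4-labelled array. Igfbp3 1423062_at read 250.0, 43.7 and 171, the second of these below the floor. The Igfbp3 gap from the FoxO1-labelled array to the FoxO3-labelled array was 1.16 and at least 1.77, and that to the FoxO4-labelled array was 1.96 and 0.55. The deposited ratios of Igfbp3 to the control were 0.7 and 1.0 with no change calls in the authors' deposited table.

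The 6 probe sets of Igfbp4, an inhibitory binding protein, disagreed among themselves in most comparisons. The authors' deposited ratios of Igfbp4 on the FoxO1-labelled array lay between -2.3 and -2.7 on 5 probe sets, 2 of them with decrease calls. The sixth, dim Igfbp4 probe set had a ratio of 1.8 and an implied control of 53.8, below the floor of 88.8. On the FoxO1-, FoxO3- and FoxO4-labelled arrays, Igfbp4 1437405_a_at lay at -2.5, -4.27 and -2.56 against the control. Igfbp4 1423756_s_at lay at -2.7, -5.50 and -2.71, its FoxO3 signal being below the floor. Neither was the brightest Igfbp4 probe set by the mean over the 3 arrays, which leaves out the control. In the implied control they read 3743 and 3299, above the 1067 of the brightest, 1421992_a_at. The gene's median on the FoxO3-labelled array was -0.62. Of the 6, 2 were at least 2-fold below the control on the FoxO3-labelled array and 3 on the FoxO4-labelled array. Among the lines the Igfbp4 probe sets gave no common order. Igfbp4 1421992_a_at read 217 on the FoxO1-labelled array, 552 on the FoxO3-labelled array and 955 on the FoxO4-labelled array, while 1437405_a_at read 662, 194 and 633. Of the 6 Igfbp4 probe sets, 3 were 2-fold or more above and 3 as far below, on the FoxO1-labelled array against the FoxO3-labelled array. For FoxO3 minus FoxO4, 5 of the 6 Igfbp4 probe sets were below 0 and 1 above, with a median of -0.61, and 2 of the 5 passed 2-fold.

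**Figure D2:**
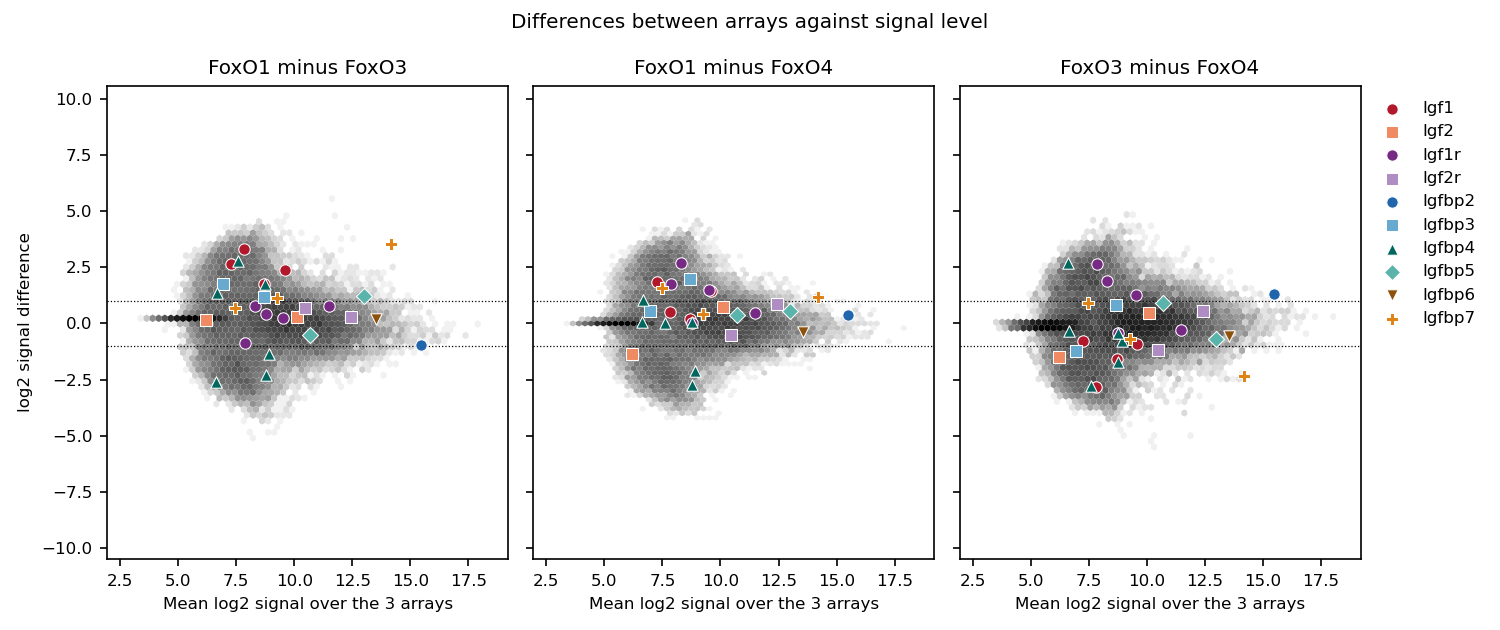
The log2 signal difference of each pair of arrays against the mean log2 signal over the 3 arrays, for all 34958 probe sets with a single symbol (grey, darker where more probe sets lie) and the 28 IGF probe sets (coloured by gene), with dotted lines at 2-fold. The grey cloud is widest at low and middle signal, where most IGF probe sets lie, and the bright Igfbp7 probe set stands apart at 3.53 in the first panel and -2.33 in the third.

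A gene was counted as at least 2-fold apart from the median over its probe sets, with signals below the 20th percentile of an array raised to that floor. For FoxO1 minus FoxO3, 3 of the 10 genes were at least 2-fold higher (Igf1, Igfbp3 and Igfbp7), where 19.6% of all genes were, and 0 were lower, where 15.8% were. For FoxO1 minus FoxO4, 3 were higher (Igf1r, Igfbp3 and Igfbp7; 18.7% of all genes) and 0 lower (15.0%). For FoxO3 minus FoxO4, 2 were higher (Igf1r and Igfbp2; 16.4%) and 1 was lower (Igf1; 17.0%). The median of the 10 genes was 0.39, 0.41 and -0.42 in these comparisons, beside 0.15, 0.07 and -0.08 over all genes. The medians over all genes equal the difference between the floors of the arrays, which any probe set below the floor on both arrays receives. With 10 genes and 1 array per line these counts are a description and no result about the family. After centring arrays on their medians, the first split became 2 higher and 1 lower, as Igfbp7 moved to 0.86 and Igfbp2 to -1.23. The second, FoxO1 minus FoxO4, became 2 higher and 0 lower, as Igfbp7 moved to 0.98.

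Among the 8 IGF probe sets in the upper 25% of signal the counts were also small. For FoxO1 minus FoxO3, 2 were at least 2-fold higher (Igfbp7 and Igfbp5; 10.2% of the 8740 probe sets at that level) and 0 lower (13.1%). For FoxO1 minus FoxO4, 1 was higher (Igfbp7; 7.91%) and 0 lower (9.24%), and for FoxO3 minus FoxO4 Igfbp2 was higher (11.9%) and Igfbp7 and Igf2r 1424112_at were lower (11.7%). The bright members that passed 2-fold in any pair of lines were thus Igfbp7, Igfbp5, Igfbp2 and Igf2r. Against the control, the FoxO1-labelled array had 2 of the 8 higher (Igfbp7 and Igf2r 1424111_at; 10.6%) and 2 lower (Igfbp5 and Igf2r 1424112_at; 11.5%).

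Against the control, the FoxO1-labelled array had 2 of the 10 genes at least 2-fold higher (Igf1 and Igfbp7; 18.8% of all genes) and 3 lower (Igf2, Igfbp4 and Igfbp5; 17.1%). The FoxO3-labelled array had 1 higher than the implied control (Igf1r; 15.2%) and 2 lower (Igf2 and Igfbp5; 17.0%), which was 2 higher and 2 lower after quantile normalization, with Igfbp2 at 1.02. The FoxO4-labelled array had 1 higher (Igf1; 15.7%) and 3 lower (Igf2, Igfbp4 and Igfbp5; 16.9%). These comparisons share the control, which is itself derived from the FoxO1-labelled array, so they are not independent. By the median over probe sets, the count lower on each of the 3 was 2 of 10 (3.46%), namely Igf2 with Igfbp5, and that higher was 0 (3.17%). With the brightest probe set of each gene, the lower ones on each were again these 2 (3.48% of all genes). By the same rule 1 was higher on all 3 (Igf1; 5.21%). By the authors' deposited calls, 5 of the 28 probe sets carried a decrease call (4.64% of all) and 2 an increase call (1.48%). Calls were more frequent at high signal, and in its upper 25% the counts were 2 of 8 for decrease (12.6%) and 2 of 8 for increase (5.32%).

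**Figure D3:**
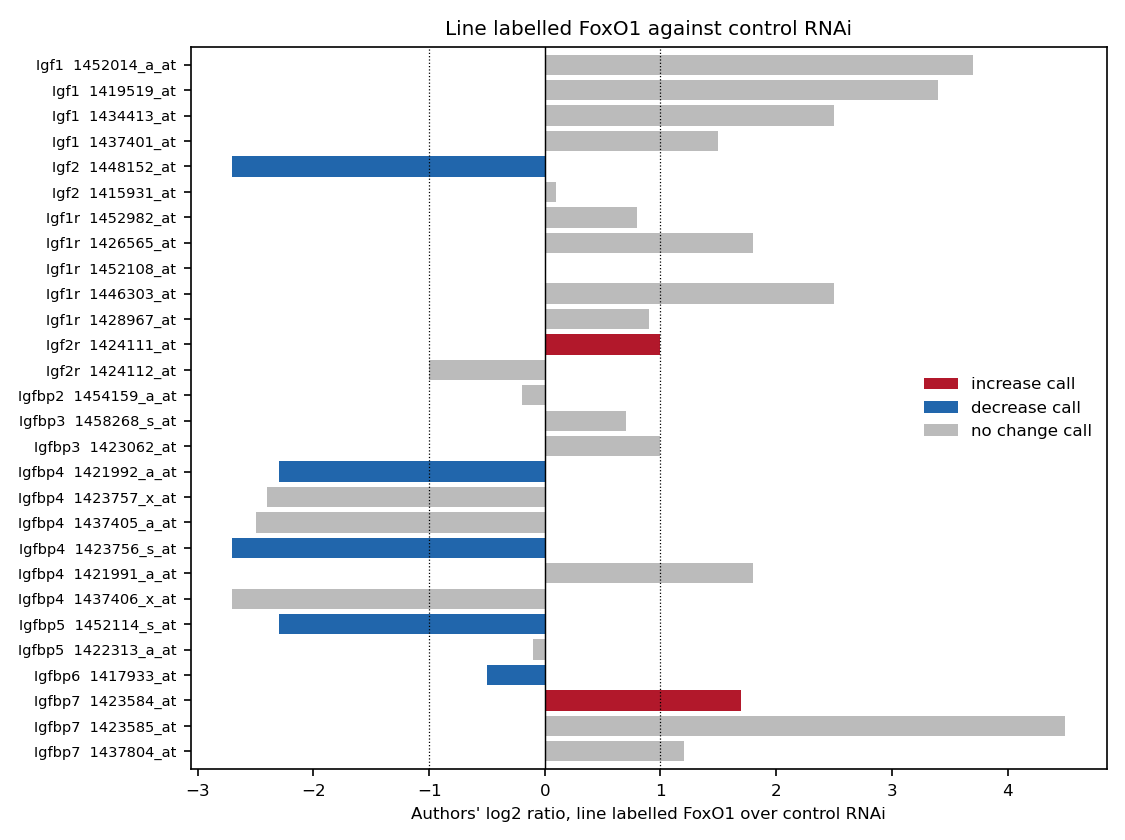
The authors' deposited log2 ratio of the line labelled FoxO1 to control RNAi for each of the 28 probe sets, 1 bar each, coloured by the authors' change call, with dotted lines at 2-fold. Igf1 bars run from 1.5 to 3.7 without a call, 5 of 6 Igfbp4 bars lie between -2.3 and -2.7, and the called bars are those of Igf2, Igf2r, Igfbp4, Igfbp5, Igfbp6 and Igfbp7.

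Markers of differentiated myotubes were low in the same lines as the brighter probe sets of Igf2 and Igfbp5. Of 10 such genes, 9 were at least 2-fold below the control on each array by their brightest probe set. By this rule 16.8%, 17.9% and 18.2% of all genes were, on the FoxO1-, FoxO3- and FoxO4-labelled arrays. Myog, the differentiation factor myogenin, lay at -3.40, -5.43 and -7.47 on the FoxO1-, FoxO3- and FoxO4-labelled arrays. Mef2c was the exception, with its brightest probe set at 2.40, 1.98 and 1.07 and its 4 dimmer ones at or below 0. The summed signal of the 10 myotube markers was 17446, 7918 and 4827 on the FoxO1-, FoxO3- and FoxO4-labelled arrays and 205645 in the implied control. No myotube marker lay at or below the floor on all 3 arrays. The myoblast markers were lower too, with 7, 4 and 4 of 7 at least 2-fold below the control, beside the same shares of all genes. In bulk RNA fewer differentiated cells and less RNA per cell cannot be told apart, and the part of differentiation in the Igf2 and Igfbp5 values was not tested.

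The summed signal of fibroblast and smooth muscle markers was lowest on the FoxO3-labelled array, as were all Igf1 probe sets and the brightest of Igfbp7. Over 8 genes it was 439740 on the FoxO1-labelled array, 141571 on the FoxO3-labelled array, 453079 on the FoxO4-labelled array and 244007 in the implied control. This sum was highest on the FoxO4-labelled array, whereas Igf1 and Igfbp7 were highest on the FoxO1-labelled array. Most of the gap to the FoxO3-labelled array came from Acta2, which read 228866, 35744 and 278209 on the 3 arrays. Without it the sums of the other 7, an alternative chosen after the data were seen, were 210874, 105827 and 174871. Only in that alternative was the FoxO1-labelled array highest. By brightest probe set, 4 of the 8 were at least 2-fold higher on the FoxO1-labelled array than on the FoxO3-labelled array (20.7% of all genes). In that pair 1, Dcn, was lower (18.0%). The smooth muscle genes Acta2 and Tagln differed in that pair by 2.68 and 3.61. On the brightest probe sets the mesenchymal marker Pdgfra read 403, 483 and 281 and Thy1 499, 320 and 225, neither in the order of Igf1. Another Pdgfra probe set read 505, 57.1 and 637, lowest on the FoxO3-labelled array, and a dimmer one 105.5, 127 and 74.1. Dcn read 46.8, 1323 and 7871 on its brightest probe set but 521, 468 and 81.4, the reverse order, on its other one. None of the 8 lay at or below the floor on all arrays, and their part in the Igf1 and Igfbp7 values was not tested. The osteoblast and chondrocyte list, with 6 of 8 genes measured, summed to 4972, 3934 and 3524 on the 3 arrays. Adipocyte markers (4 of 5 measured) summed to 2264, 1310 and 2541, endothelial markers (4 of 4) to 1561, 1324 and 1754, and leukocyte markers (4 of 4) to 1925, 2348 and 2646. The adipocyte and endothelial sums were also lowest on the FoxO3-labelled array, so that trait was not particular to the fibroblast and smooth muscle list.

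**Figure D4:**
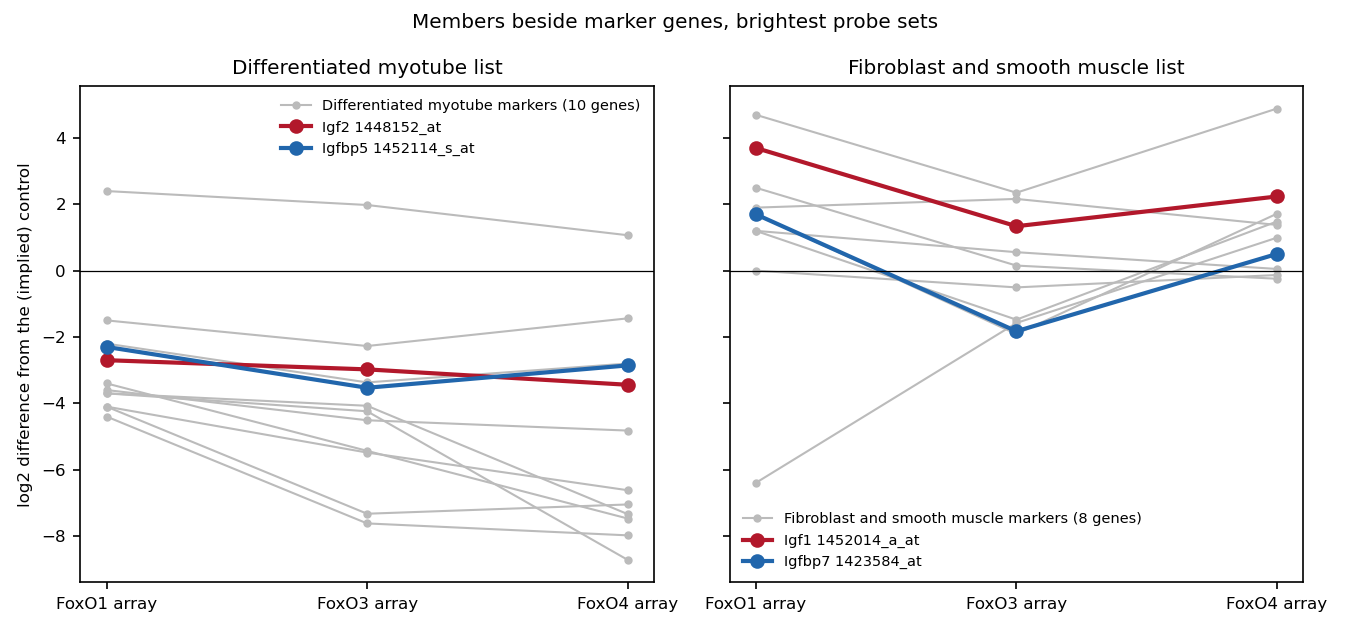
The log2 difference from the control on the FoxO1-, FoxO3- and FoxO4-labelled arrays, by brightest probe set, for Igf2 and Igfbp5 beside 10 myotube markers (left) and for Igf1 and Igfbp7 beside 8 fibroblast and smooth muscle markers (right). Lines join values of the same probe set. Igf2 and Igfbp5 lie between -2.3 and -3.53 with 9 of 10 myotube markers also below 0, and Igf1 and Igfbp7 both have their lowest value on the FoxO3-labelled array.

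Of 24 further genes of the IGF system, 22 had a probe set of their own, and their brightest probe sets were compared. For FoxO1 minus FoxO3, 3 were at least 2-fold higher (20.7% of all genes by this rule) and 4 lower (18.0%). For FoxO1 minus FoxO4 the counts were 4 (19.9%) and 5 (16.4%), and for FoxO3 minus FoxO4 they were 6 (18.8%) and 4 (18.3%). Against the control, 5, 5 and 7 were higher on the FoxO1-, FoxO3- and FoxO4-labelled arrays (21.1%, 18.8% and 19.2%) and 2, 2 and 3 lower (16.8%, 17.9% and 18.2%). The medians against the control were 0.20, 0.25 and 0.41, beside 0, -0.09 and -0.06 over all genes. With 22 genes and 1 array per line these counts are a description.

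Of the genes of this list that passed the naming rule, Htra1, Irs1 and Adamts1 had signals above 1000 on every array. Htra1, a secreted protease that cleaves IGF binding proteins, read 38034 on the FoxO1-labelled array, 24410 on the FoxO3-labelled array and 10692 on the FoxO4-labelled array. The second Htra1 probe set kept that order at 33596, 19736 and 11487, and both carried increase calls at a ratio of 1.5 in the authors' deposited table. Irs1, the adaptor that docks to Igf1r and the insulin receptor, read 28733, 15398 and 29674, with an increase call and a ratio of 1.2. Adamts1, a matrix protease, read 1797, 1808 and 4080, and so was more than 2-fold higher on the FoxO4-labelled array than on the others.

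The rest of the list that passed the naming rule had a lower signal on at least 1 array. Pappa, the protease that cleaves Igfbp4, read 490, 490 and 628 against an implied control of 40.4, which is below the floor. Stc1 and Stc2 are inhibitors of that protease. Stc1 was lowest on the FoxO1-labelled array, at 82.4 against 744 and 305, while Stc2 was lowest on the FoxO4-labelled array, at 431 against 1080 and 1158. Plagl1, an imprinted transcription factor, read 957 on the FoxO1-labelled array, 297 on the FoxO3-labelled array and 31.4, below the floor, on the FoxO4-labelled array. The adaptor Grb14 was highest on the FoxO3-labelled array, at 2059 against 730 and 948. Igf2bp1, which binds Igf2 mRNA, was lowest on the FoxO1-labelled array, at 196 against 822 and 526. Its relative Igf2bp3 read 1225, 2183 and 864 on the FoxO1-, FoxO3- and FoxO4-labelled arrays. Igfals, the stabilising subunit of serum IGF complexes, read 348, 43.8 and 386. Crim1 read 916, 203 and 437, and Igfbpl1 62.3, 235 and 409. Other probe sets of these genes did not always give the same order: the second of Igfbpl1 was highest on the FoxO1-labelled array, at 402 against 34.7 and 53.3, and a further one of Stc2 was lowest on the FoxO3-labelled array, at 137. By brightest probe set, Sorl1 was the only gene of the 22 at least 2-fold below the control on all 3 arrays (3.48% of all genes). Its values were -1.2, -1.14 and -1.16. In the other direction, Pappa was at least 2-fold above the control on all 3, at 3.6, 2.47 and 2.82 (5.21% of all genes). With so few genes neither is a result about the list. That Sorl1 probe set had a no change call. Its dimmer probe sets lay at -0.8, -2.66 and -0.74 and, below the floor on every array, at 0.2, -0.28 and -0.20.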

How the data were processed

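Expression was measured in 3 C2C12 lines on 1 Affymetrix array each. The deposited signal is an intensity per probe set, with a 2% trimmed mean of 1000 on every array. The submitters' processing notes name GCOS without a version or settings. The other deposited table holds a log2 ratio against control RNAi with a change call, per the file headers. The ratio labelled FoxO1 followed its own array's signal minus the others with r = 0.58 over 45101 probe sets, while those labelled FoxO3 and FoxO4 gave -0.01 and -0.00 and were not read per probe set. The implied control was the FoxO1 signal divided by the unlogged ratio.

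Members were matched by the platform annotation, and all 28 symbols were current by Entrez identifier. Values under an array's 20th percentile were raised to it (81.2, 73.1 and 77.3 for FoxO1, FoxO3 and FoxO4, and 88.8 for the implied control) before log2, and the deposited ratio was not. Differences are log2, the limit was 2-fold, with the median of a gene's probe sets as its value. Arrays with 1 per line give no test, and their number limits the precision. Members, gene lists and motifs were chosen with earlier results of these data known. The genes named were the 10 members, Foxo1, Foxo3, Foxo4, markers, and genes of the 24-gene IGF list at least 2-fold from both other arrays or the control; Myog, Acta2 and similar examples were picked after their values were seen. Calculations were tested on simulated data. The work ran in Python 3.11.15 with pandas 2.3.3 and numpy 2.4.6, and scipy 1.17.1. Plots used matplotlib 3.10.9.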

Additional observations from a re-analysis of the deposited data

Results flagged for a closer look

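Igfbp7 1423584_at lay on opposite sides of the control in different lines, at 1.7 on the FoxO1-labelled array and -1.83 on the FoxO3-labelled array, both past 2-fold. This rests on 1 of 3 Igfbp7 probe sets: on the FoxO3-labelled array 1423585_at lay at 2.19 and 1437804_at at 0.53, and the median of the 3 was 0.53. The implied control of 1423585_at, 38.6, was below the floor of 88.8. Igf1 1437401_at also lay on opposite sides of the control, at 1.5 and -1.15, with its signal of 63.2 on the FoxO3-labelled array below the floor. With 1 array per line neither difference was tested, and both use the same control.

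Probe set 1440979_at is annotated to both Airn and Igf2r, so it was not among the 28. Airn is a non-coding RNA that overlaps Igf2r on the other strand. It read 149 on the FoxO1-labelled array, 504 on the FoxO3-labelled array and 173 on the FoxO4-labelled array, and 2.16 above the implied control of 113 on the FoxO3-labelled array by log2 difference.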

How the results depend on the processing

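No paired analysis was possible because each line had 1 array. Of 60 member values (10 genes in 6 comparisons), 21 were at least 2-fold from 0. Of these, 19 stayed past 2-fold the same way without a floor, 19 with arrays centred on their median, 18 after quantile normalization, 16 with the brightest probe set, 16 without _x_at and _s_at probe sets and 20 with dim probe sets left out. The spread used here was the SD between 2 probe sets of a gene over all signal levels, divided by the square root of 2. It was 1.27 to 1.47, smaller than the SD between probe sets at signals below the upper 25%. With the brightest probe set 1 of the 60 reversed, Igf1r for FoxO3 minus FoxO4 (-0.30), and 8 moved by more than this spread. These were Igfbp7 for FoxO1 minus FoxO3 (3.53), FoxO3 minus FoxO4 (-2.33) and FoxO3 against the implied control, where its 0.53 became -1.83, Igfbp4 for FoxO1 minus FoxO4 (-2.14), Igf1r (0.05) and Igfbp5 (-3.53) for FoxO3 against the implied control, and Igf2 for FoxO3 (-2.98) and FoxO4 (-3.44) against it. The Igf2 values also moved to these with dim probe sets left out. Another 1 reversed without _x_at and _s_at probe sets, Igfbp5 on the FoxO3-labelled array against the implied control (0.42). The count of members past 2-fold for FoxO1 minus FoxO3 was 5 with the brightest probe set, and that of FoxO4 against the implied control was 2 without _x_at and _s_at probe sets. At a 4-fold limit the counts were 1, 0 and 0 for FoxO1 minus FoxO3, FoxO1 minus FoxO4 and FoxO3 minus FoxO4, and 2, 0 and 1 for FoxO1, FoxO3 and FoxO4 against the control. At 1.5-fold they were 5 for FoxO3 minus FoxO4 and 7 for FoxO3 against the implied control. The causes were not tested, beyond the limits themselves. Signal is also a limit: 20 of the 28 probe sets lie below the upper 25% of signal.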
